A study of Mus musculus with 30 samples.

Results

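The *Ly6* surface antigen genes were followed in bulk RNA sequencing of bone marrow (BM) and of adipose tissue macrophages (ATMs) from mice that carry *Shp2* E76K-mutant blood cells. The members were 7 genes chosen by symbol, *Ly6a*, *Ly6c1*, *Ly6c2*, *Ly6d*, *Ly6e*, *Ly6g* and *Ly6i*, and a member was used where its symbol stood in both count tables. This gave 6 members of the 13353 genes in the BM table and the same 6 of the 17059 genes in the ATM table. *Ly6g* was not analysed here, so neither the neutrophil antigen itself nor its ratio to *Ly6c2* could be given. All 6 members were retained by edgeR's filter on low counts.

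All recipients had been lethally irradiated, with 700 cGy plus 400 cGy, and then, by the protocol given for the series, received equal numbers of CD45.2+ BM cells from Shp2E76K/+;LysM-Cre+ donors and of CD45.1+ competitor BM cells from Boy/J mice. LysM-Cre is driven by a myeloid promoter, and each library therefore mixed mutant cells, competitor cells and whatever host cells had survived. The 5 groups were WT recipients with no treatment named, and leptin-deficient *Ob/Ob* recipients under 4 regimens, which were vehicle alone (Vehicle), beinaglutide, a GLP-1R agonist, at 3 mg/kg, an anti–IL-17A antibody at 200 μg per mouse 3 times weekly, or both agents (Combo). Treatment began 8 weeks after transplantation and lasted 30 days, and there were 3 libraries per group and tissue, 30 in all. The labels give an age of 12 to 14 weeks. Given the age at transplantation that the study states, this cannot be the age of the *Ob/Ob* recipients at sampling. The labels name the genotype C57BL/6J for every sample and 1 batch, and state 3 mice per group. The donor is given for the whole series and not per sample, and the study also describes ATMs of mice that received WT stem and progenitor cells as a comparison group, so a difference in donor between the WT libraries and the others cannot be told apart from the recipient's genotype.

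Ly6 proteins are small cell-surface proteins of the Ly6/uPAR fold, most of them held in the membrane by a glycosylphosphatidylinositol (GPI) anchor, and the mouse genes form a cluster on chromosome 15. *Ly6a* encodes Sca-1, the antigen that with c-KIT defines LSK stem and progenitor cells and that interferons strongly induce, also on cells that do not normally carry it. *Ly6c2* and *Ly6c1* encode the Ly6C antigens, of which *Ly6c2* is the main one of inflammatory monocytes and *Ly6c1* is prominent on endothelium. The Gr-1 antibody used for myeloid cells binds Ly6G and, more weakly, Ly6C. *Ly6d* marks lymphoid progenitors set on the B-cell path and is also made by stratified epithelium, *Ly6e* is an interferon-induced member of broad expression, and *Ly6i* is a less studied member of the same cluster.

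In the GENCODE M21 annotation (GRCm38) the 6 members lay within chromosome 15, *Ly6d* at chr15:74762056-74763620, *Ly6e* at chr15:74955051-74959905, *Ly6i* at chr15:74979534-74983430, *Ly6a* at chr15:74994877-74998031, *Ly6c1* at chr15:75044018-75048830 and *Ly6c2* at chr15:75108158-75111970. Only *Ly6e* is on the plus strand. No exon of a member overlapped an exon of another gene, so counting without regard to strand added no reads from an overlapping gene in this annotation. Near-identical sequence is the other limit. The coding sequences of *Ly6c1* and *Ly6c2* are shown because both antigens bear the same name and changed differently in ATMs. Over 396 aligned bases they differed at 9 (97.7% identity), with a stretch of 188 bases in a row the same. Bases 1 to 120 from the start codon hold 6 of the 9 differing bases, which are in capitals.
Ly6c1 (minus strand, coding span chr15:75045402-75048511): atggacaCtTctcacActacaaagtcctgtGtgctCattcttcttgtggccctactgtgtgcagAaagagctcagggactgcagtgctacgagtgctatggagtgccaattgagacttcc
Ly6c2 (minus strand, coding span chr15:75108543-75111667): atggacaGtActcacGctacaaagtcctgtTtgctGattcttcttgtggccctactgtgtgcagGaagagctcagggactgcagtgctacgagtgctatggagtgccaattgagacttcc
Of the distinct 100-base stretches in annotated transcripts, 10.14% of those of *Ly6c1* and 5.81% of those of *Ly6c2* also occurred in another gene, as did 1.45% for *Ly6a* and 0% for *Ly6d*, *Ly6e* and *Ly6i*. At 50 bases the shares were 32.77% for *Ly6c1*, 18.97% for *Ly6a*, 14.45% for *Ly6c2* and 4.76% for *Ly6i*. Only uniquely mapped reads were counted, so reads from such stretches could be lost or placed on the wrong copy, and values of *Ly6c1* and *Ly6c2* carry that uncertainty.

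The 250 bases before the RefSeq start of each *Ly6c* gene (GRCm38.p6, the upstream-most start listed) are shown for the same reason. Capitals mark a match to GAGGAAGT, a core sequence bound by the myeloid factor PU.1.
Ly6c1 (minus strand, chr15:75048838-75049087): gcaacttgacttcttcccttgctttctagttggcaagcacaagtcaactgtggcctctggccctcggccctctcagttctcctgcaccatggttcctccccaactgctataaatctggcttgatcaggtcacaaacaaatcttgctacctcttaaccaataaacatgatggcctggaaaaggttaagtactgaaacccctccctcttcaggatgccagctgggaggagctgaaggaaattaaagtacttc
Ly6c2 (minus strand, chr15:75111972-75112221): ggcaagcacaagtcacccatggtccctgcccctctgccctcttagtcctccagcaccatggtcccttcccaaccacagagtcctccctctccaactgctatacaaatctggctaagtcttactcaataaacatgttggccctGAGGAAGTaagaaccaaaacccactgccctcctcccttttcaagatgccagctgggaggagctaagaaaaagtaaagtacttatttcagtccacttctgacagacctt
On both strands, GAGGAAGT matched 1 time in the *Ly6c2* window, 108 bases before the start, and nowhere in the *Ly6c1* window, and 2.44% of 32851 windows of this length hold it. Neither window held the interferon response core, GAAA followed by 2 bases of any kind and GAAA (2.98% of windows) or the C/EBP core TTGCNNAA (9.56%). A match is a description of these letters and not a binding site. No window was listed for *Ly6a*, *Ly6d*, *Ly6e* or *Ly6i*.

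BM libraries held 31086184 to 39925495 counts and ATM libraries 24876074 to 45300263. Values below are normalized counts, meaning counts divided by a library's effective (TMM) size and set to the mean effective size of the 15 libraries of that tissue. Levels can therefore be compared between groups of a tissue, and between genes only after division by exon length. The labels do not say whether the BM and ATM libraries of a group came from separate mice. The p-values measure only the spread between the libraries of a group. Over all genes, edgeR's common dispersion gave a coefficient of variation of 3.51% in BM and 32.5% in ATMs. Whether this spread holds the full variation between mice was not tested, so very small p-values in BM call for caution. Log2 fold changes carry their standard error (SE). A member was called where edgeR's quasi-likelihood test gave an adjusted p below 0.05 with a log2 fold change beyond 1 in either direction. The spread between the 3 libraries of a group was a coefficient of variation of 0.235% to 43.1% for the members in BM (median 5.32%) and of 0.836% to 46.5% in ATMs (median 3.71%). Among the BM libraries WT replicate 1 stood apart, since it differed from the other WT libraries by a chi-square per degree of freedom of 26.6 and 34.8, against 2.94 between those.

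Transcripts of the X-inactivation RNA *Xist* and of Y-linked genes differed between the groups, although the labels describe the groups as balanced for sex. In BM, *Xist* was 6340 to 6710 in Vehicle and 3530 to 3660 in Combo libraries, against 0 to 2.6 in WT, 0 to 5.62 with the GLP-1R agonist and 88.3 to 113 with the antibody. The Y-linked *Ddx3y* was 695 to 743 in Vehicle and 147 to 177 in Combo, against 1460 to 2020 in the other groups. In ATMs *Xist* was 998 to 1530 in Vehicle and 1040 to 1260 in Combo, against 0 to 40.6 elsewhere. The sex of the cells and the group cannot be told apart where Vehicle or Combo is set against WT or a single agent. Combo and Vehicle both held *Xist*, but in BM they differed in *Xist* and *Ddx3y* as well.

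In BM, every member differed between Vehicle and WT. *Ly6a*, *Ly6c1*, *Ly6c2*, *Ly6e* and *Ly6i* rose and *Ly6d* fell. The count of 6 of 6 called members stands beside 19.5% of all 13353 genes called in that comparison, 9.44% higher and 10% lower. The median log2 fold change was 2.29 over the 6 members and -0.02 over all genes. All 6 remained called without WT replicate 1.

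**Figure D1:**
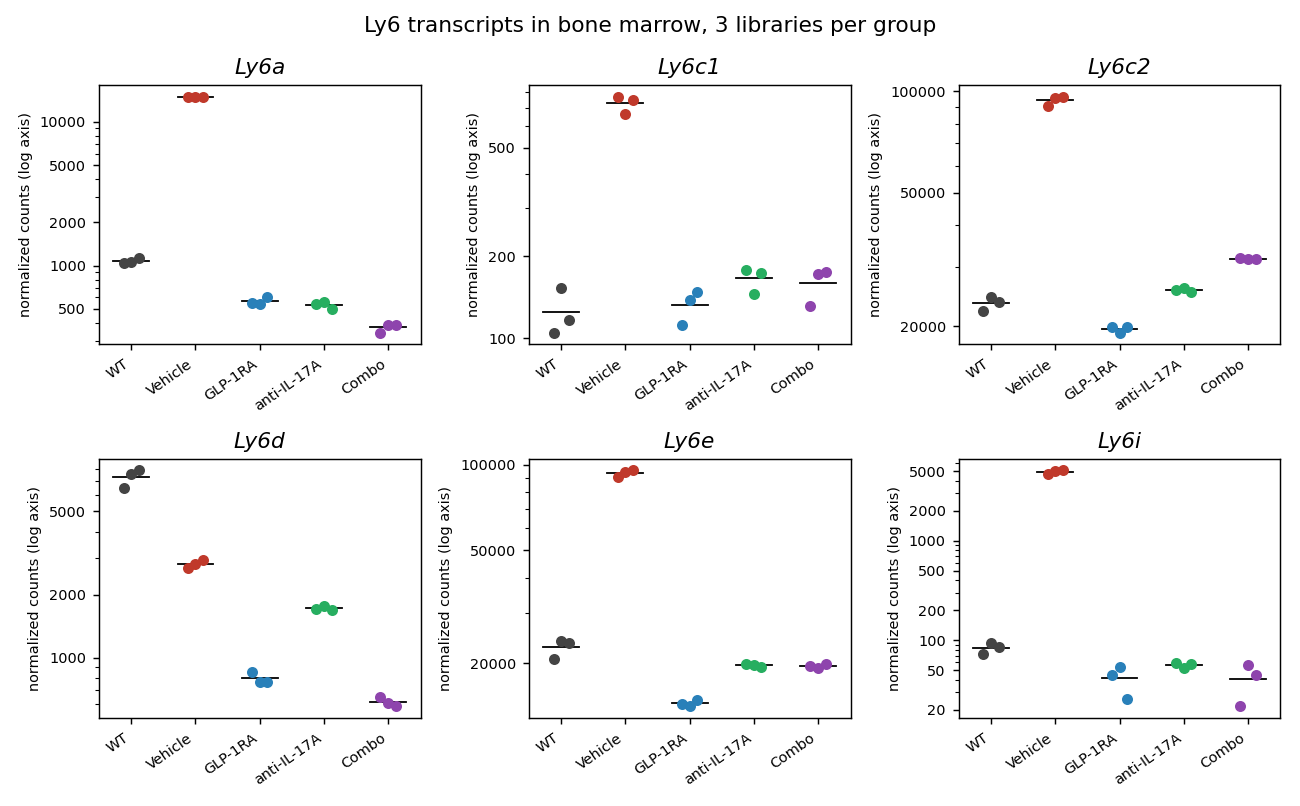
Normalized counts of the 6 *Ly6* members in BM on log axes, with 1 point per library, 3 libraries per group and a line at the group mean. Vehicle libraries lie above every other group for 5 members, and for *Ly6d* they lie between WT and the treated groups.

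*Ly6a* encodes Sca-1. WT libraries held 1035, 1058 and 1132 normalized counts and Vehicle libraries 14803, 14885 and 14959.5. The groups lay far apart, with a log2 fold change of 3.79 ± 0.0406 (SE, edgeR adjusted p = 1.84e-44), a 13.9-fold rise. The treated libraries all lay below WT, with 544 to 602 for the GLP-1R agonist, 497 to 560 for the antibody and 342 to 389 for Combo. In the order Vehicle, WT, GLP-1R agonist, antibody and Combo, only the GLP-1R agonist and the antibody did not differ by the adjusted p (0.181, edgeR). The summed level of 10 stem and progenitor markers did not follow *Ly6a*. It was 5358 to 5425 in WT and 4830 to 4901 in Vehicle. With treatment it was 6729 to 6876 (GLP-1R agonist), 7481 to 7748 (antibody) and 6304 to 6506 (Combo). The part of stem and progenitor cells in *Ly6a* was not tested.

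*Ly6i*, scarce in WT marrow, had the largest fold change of the 6 in BM. It held 72.7, 94.2 and 85.1 normalized counts in WT and 4662, 4972 and 5085 in Vehicle libraries, a log2 fold change of 5.87 ± 0.113 (SE, edgeR adjusted p = 2.88e-20). No WT library came near a Vehicle library. With the GLP-1R agonist *Ly6i* was 41.3 ± 14.3 (SD, n = 3), with the antibody 56.3 ± 2.99 and with Combo 40.9 ± 17.6, and these 3 treated groups did not differ by the adjusted p (0.134 to 0.891, edgeR).

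*Ly6e*, among the most abundant transcripts of the marrow (rank 103 of 13353 by mean), rose from 20776, 23934 and 23638 normalized counts in WT to 90359, 94205 and 95551 in Vehicle libraries. The groups did not overlap, and the log2 fold change was 2.04 ± 0.0436 (SE, edgeR adjusted p = 1.25e-15). Treated means were 14453 ± 377 for the GLP-1R agonist, 19677 ± 248 for the antibody and 19593 ± 384 for Combo. The latter pair did not differ by the adjusted p (0.917, edgeR), and all 3 means were below WT, with log2 fold changes of -0.66, -0.21 and -0.22 that did not reach the fold limit.

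*Ly6c2* rose 4.01-fold, from 22276, 24417 and 23625 normalized counts in WT to 90273, 95359 and 96397 in Vehicle libraries (log2 fold change 2.00 ± 0.0275, SE, edgeR adjusted p = 3.36e-37). Treatment set the groups apart in steps. Combo libraries held 31712 to 31842, antibody libraries 25390 to 25941 and GLP-1R agonist libraries 19165 to 19971, and every neighbouring pair in the order Vehicle, Combo, antibody, WT and GLP-1R agonist passed the adjusted p, although the step from antibody to WT was only 0.13 on the log2 scale. The near copy *Ly6c1* was much lower and rose from 105, 153 and 116 in WT to 770, 668 and 746 in Vehicle libraries (log2 fold change 2.55 ± 0.12, SE, edgeR adjusted p = 3.14e-21). Between 112 and 179 in the treated libraries, *Ly6c1* overlapped the WT libraries in all 3 treated groups.

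*Ly6d*, the B-lineage member, moved the other way. WT libraries held 6498, 7543 and 7835 normalized counts and Vehicle libraries 2685, 2817 and 2934, a log2 fold change of -1.37 ± 0.0582 (SE, edgeR adjusted p = 1.25e-13). It was lower still in every treated group, at 1724 ± 46.3 with the antibody, 798 ± 52.3 with the GLP-1R agonist and 614 ± 32.8 with Combo, so that no 2 groups overlapped. Combo libraries thus held 0.0843 of the WT level.

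Each treated group was below Vehicle in BM for all 6 members, without overlap of libraries. The share of all genes without overlap was not counted. Without the fold limit, 72.8% (GLP-1R agonist), 73% (antibody) and 73.8% (Combo) of all genes passed the adjusted p against Vehicle. The GLP-1R agonist gave 6 of 6 called lower (9.08% of all genes were called lower), the antibody 5 of 6 (8.46%) and Combo 6 of 6 (11.1%). The exception was *Ly6d* with the antibody, at -0.71 on the log2 scale (edgeR adjusted p = 9.4e-09) that did not reach the fold limit. The largest decreases were those of *Ly6i*, with log2 fold changes of -6.86, -6.44 and -6.91 for the GLP-1R agonist, the antibody and Combo, and of *Ly6a*, with -4.72, -4.81 and -5.32. *Ly6c2* fell least among the 5 members that were high in Vehicle, with -2.26, -1.87 and -1.57. These comparisons share the same 3 Vehicle libraries.

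Set against WT, the mean of each treated group in BM was below WT for *Ly6a*, *Ly6d*, *Ly6e* and *Ly6i*. Combo differed from WT in 3 of 6 members (14.3% of all genes were called), namely *Ly6d* (log2 fold change -3.57, SE 0.0691), *Ly6a* (-1.53, SE 0.0545) and *Ly6i* (-1.03, SE 0.234). The *Ly6i* call rested on single libraries, because it was -0.73 without Combo replicate 1 and -0.93 without WT replicate 2. The antibody gave 2 called members (6.32% of all genes), *Ly6d* at -2.08 and *Ly6a* at -1.01, and the latter was -0.98 without WT replicate 3 and -0.97 without antibody replicate 3. The GLP-1R agonist gave 1 (14.7% of all genes), *Ly6d* at -3.19, and *Ly6i* stood at -0.99 and passed the limit without WT replicate 1 (-1.09) or without GLP-1R agonist replicate 1 (-1.04) or 2 (-1.22).

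Few members were called between Combo and the single agents in BM. Against the GLP-1R agonist 0 of 6 members were called by edgeR and by DESeq2 (13.2% of all genes were called by edgeR), while 4 had an edgeR p below 0.05, unadjusted or adjusted. The sizes of those 4 were -0.60 for *Ly6a*, 0.69 for *Ly6c2*, -0.38 for *Ly6d* and 0.44 for *Ly6e* on the log2 scale. Against the antibody only *Ly6d* was called, at -1.49 (SE 0.0739, adjusted p = 5.05e-12, edgeR), with 5.67% of all genes called. *Ly6d* was also the only member called between the 2 single agents, lower with the GLP-1R agonist by a log2 fold change of -1.11, where 5.83% of all genes were called. Without the fold limit 6 members passed the adjusted p in Combo against WT (73.3% of all genes did), 5 with the GLP-1R agonist against WT (74.7%) and 6 with the antibody against WT (66.3%), and 4 passed in Combo against the GLP-1R agonist (71.4%), 3 in Combo against the antibody (52.5%) and 4 between the single agents (62.7%).

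In ATMs all 6 members rose in Vehicle against WT, including *Ly6d*. The libraries of both groups did not overlap for any member. The share of all genes without overlap was not counted, but 56.9% passed the adjusted p without the fold limit. In that comparison 12.5% of the 17059 genes were called higher and 22.9% lower. The median log2 fold change was 2.94 over the members and -0.21 over all genes. Here the cells were described as sorted on F4/80, the product of *Adgre1*, yet *Adgre1* was 6387 to 7619 in WT, 1002 to 1738 in Vehicle, 12450 to 13370 with the GLP-1R agonist, 28680 to 29670 with the antibody and 13110 to 13430 with Combo. The summed level of 8 macrophage markers was 64498 to 67321 in WT and 53976 to 58133 in Vehicle, and that of 10 markers of stroma was 527254 to 557017 and 206871 to 220157, so markers of other cells were high in these libraries as well. Other lists differed more between groups. The sum of 4 epididymal markers was 99411 to 104358 in WT and 0 to 19.5 in Vehicle. That of 6 pancreatic acinar markers was 252 to 454 in Vehicle and 28199 to 28712 with Combo. The sum of 6 adipocyte markers was 37644 to 37807 in WT and 133667 to 141853 in Vehicle. In bulk libraries fewer cells of a type and less RNA per cell cannot be told apart.

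**Figure D2:**
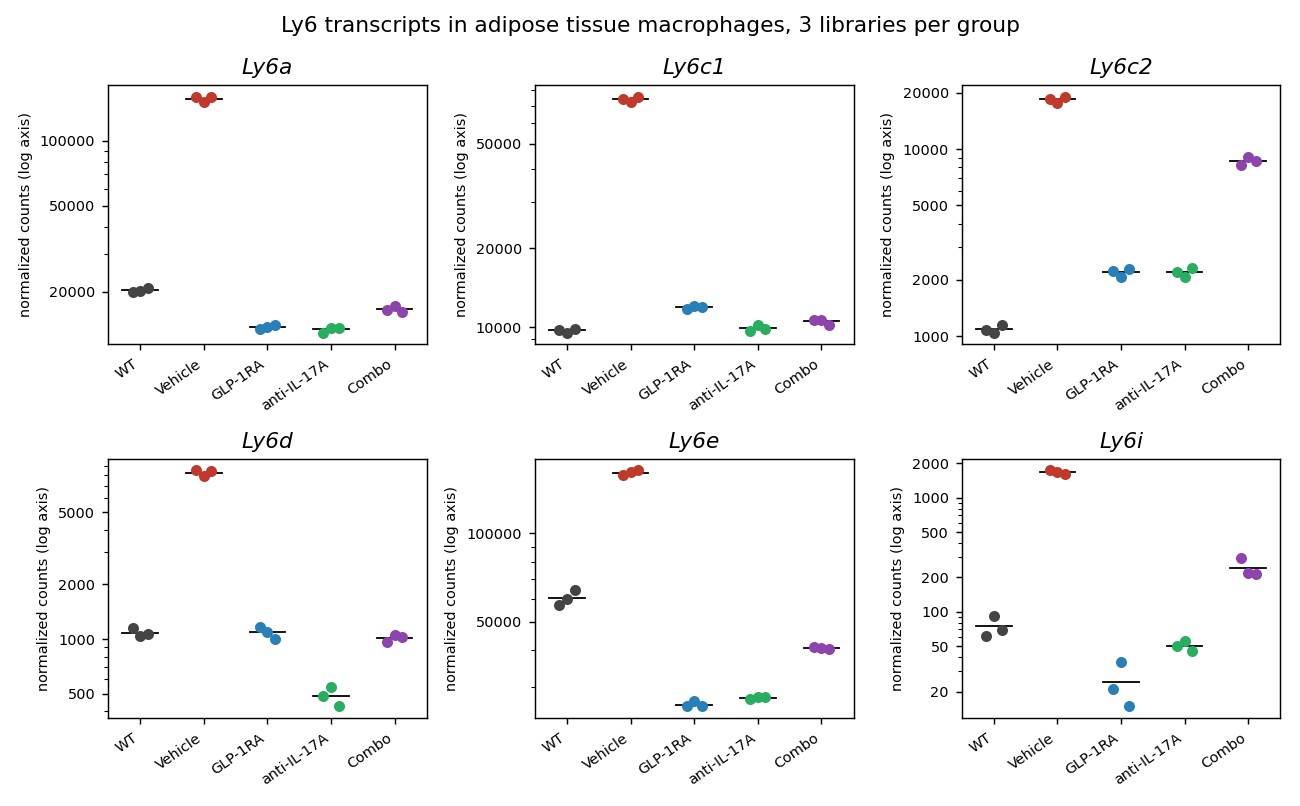
Normalized counts of the 6 *Ly6* members in ATMs on log axes, with 1 point per library, 3 libraries per group and a line at the group mean. Vehicle is highest for every member, and Combo lies between Vehicle and both single agents for *Ly6a*, *Ly6c2*, *Ly6e* and *Ly6i*.

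*Ly6a* in ATMs went from 19876, 20190 and 20862 normalized counts in WT to 160237, 150863 and 159736 in Vehicle libraries. The lowest Vehicle library stood well above the highest WT library (log2 fold change 2.95 ± 0.0375, SE, edgeR adjusted p = 1.03e-17). Treated means were 13730 ± 271 for the GLP-1R agonist, 13348 ± 387 for the antibody and 16559 ± 559 for Combo, all under the WT mean, and the single agents did not differ by the adjusted p (0.443, edgeR).

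*Ly6c1*, prominent on endothelium, rose from 9752, 9526 and 9852 normalized counts in WT to 74079, 72395 and 75667 in Vehicle libraries (log2 fold change 2.93 ± 0.0364, SE, edgeR adjusted p = 5.47e-18). The treated groups lay within 0.29 of WT on the log2 scale. The GLP-1R agonist gave 11906 ± 185, Combo 10509.7 ± 301 and the antibody 9905 ± 299, and the antibody and WT did not differ by the adjusted p (0.548, edgeR), with a log2 fold change of 0.03 and a SE of 0.034.

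*Ly6c2* rose more than *Ly6c1*. WT libraries held 1079, 1047 and 1151 normalized counts and Vehicle libraries 18582, 17696.5 and 19019, a 16.9-fold difference (log2 fold change 4.08 ± 0.0675, SE, edgeR adjusted p = 1.2e-16). It was 2233, 2066 and 2282 with the GLP-1R agonist and 2199, 2081 and 2327 with the antibody. Combo libraries held 8265, 9050.2 and 8586, above both single agents and above WT without overlap. *Ly6c2* and *Ly6c1* thus parted in the Combo group, where *Ly6c1* stood at 1.08 of its WT level and *Ly6c2* at 7.91 times its WT level (log2 fold change 2.98 ± 0.0646, SE, edgeR adjusted p = 1.11e-14).

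*Ly6i* was likewise higher with Combo than in WT or with the single agents, at far lower counts. WT libraries held 61.9, 92.6 and 68.6 normalized counts, Vehicle libraries 1731, 1676 and 1606, and Combo libraries 294, 217 and 214. Combo stood between Vehicle and all other groups, and its log2 fold change against WT was 1.70 (SE 0.257, adjusted p = 6.76e-05, edgeR). The single agents left 24.1 ± 11.2 (GLP-1R agonist) and 50.6 ± 5.18 (antibody), means below that of WT, unlike those of *Ly6c2*.

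*Ly6e* and *Ly6d* completed the set. *Ly6e*, rank 40 of 17059 genes by mean, rose from 60443 ± 3609 in WT to 160990 ± 2961 in Vehicle (log2 fold change 1.41 ± 0.036, SE, edgeR adjusted p = 2.14e-14) and was 26174 ± 611, 27669 ± 364 and 40712 ± 340 with the GLP-1R agonist, the antibody and Combo. All treated libraries were below the lowest WT library of 57072.5. *Ly6d* rose from 1156, 1035 and 1063 in WT to 8484, 7866 and 8442 in Vehicle libraries (log2 fold change 2.93 ± 0.0969, SE, edgeR adjusted p = 4.79e-13). It was 1087 ± 78.8 with the GLP-1R agonist and 1018 ± 45.8 with Combo, neither different from WT by the adjusted p (0.99 and 0.461, edgeR), and 485 ± 58.2 with the antibody, lower than WT by a log2 fold change of -1.16.

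All 6 members were called lower than Vehicle in each of the 3 treated groups of ATMs, beside 10.9%, 13.1% and 12.2% of all genes called lower with the GLP-1R agonist, the antibody and Combo. The range of log2 fold changes was -6.15 (*Ly6i*) to -2.62 (*Ly6e*) for the GLP-1R agonist, -5.04 (*Ly6i*) to -2.54 (*Ly6e*) for the antibody and -3.24 (*Ly6a*) to -1.09 (*Ly6c2*) for Combo. Again the same 3 Vehicle libraries entered all of these comparisons.

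**Figure D3:**
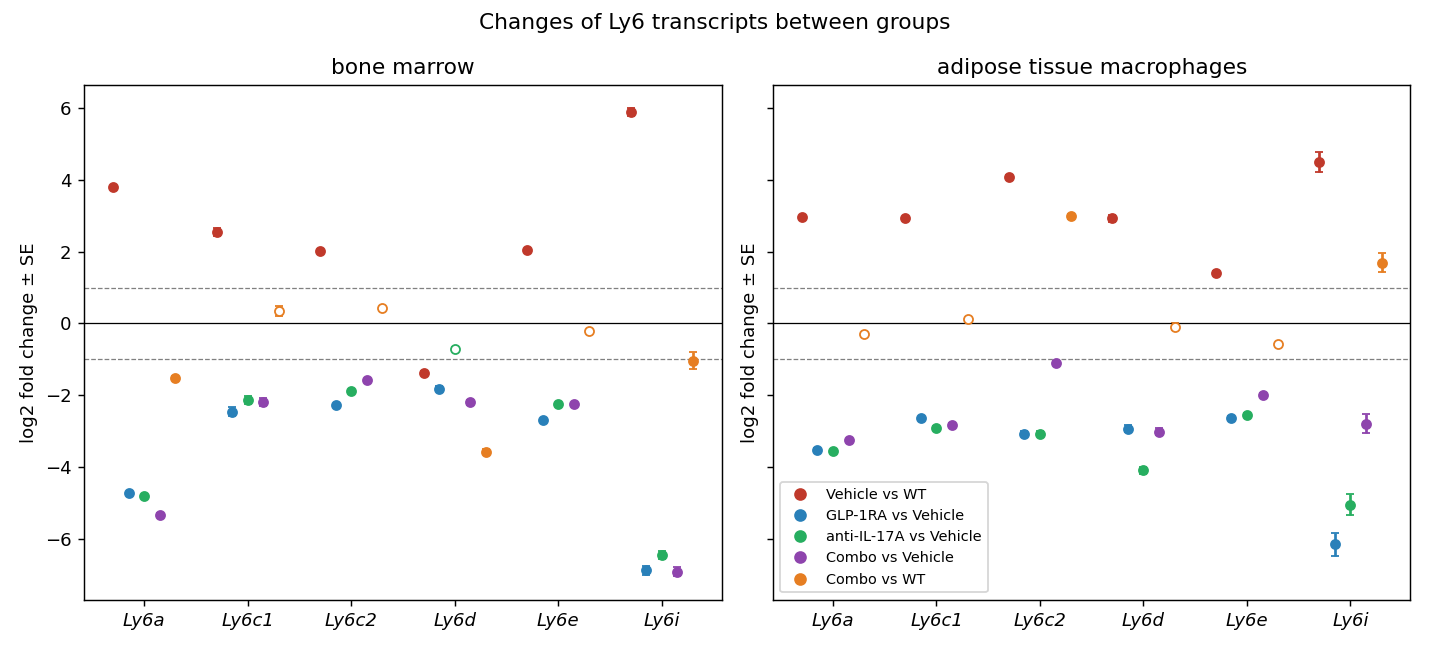
Log2 fold change of each member with its SE in BM (left) and ATMs (right) for 5 comparisons, with filled points for called members, open points for the rest and dashed lines at 1 and -1. Red points (Vehicle against WT) lie above 1 except for *Ly6d* in BM, and orange points (Combo against WT) lie above 1 only for *Ly6c2* and *Ly6i* in ATMs.

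Against WT, Combo ATMs were higher in 2 of 6 members, *Ly6c2* and *Ly6i*, where 7.08% of all genes were called higher and 14.5% lower. The single agents each gave 3 called members, beside 15.1% (GLP-1R agonist) and 18.7% (antibody) of all genes. *Ly6c2* was higher with either one, at log2 fold changes of 1.01 for both, which lie on the fold limit. Both calls were lost without WT replicate 2 (0.98 for both) and when only the groups compared were fitted (0.96 and 1.00). The antibody call was also lost without antibody replicate 3 (0.97). That of the GLP-1R agonist was also lost with DESeq2 (0.97), with its size factors (0.97), with at least 10 counts in every library (1.00), and without WT replicate 1 (1.00), GLP-1R agonist replicate 1 (0.99) or replicate 3 (0.98). *Ly6e* was lower with either one, at -1.21 and -1.13. The other called member was *Ly6i* with the GLP-1R agonist (-1.67, SE 0.289) and *Ly6d* with the antibody.

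Combo was above both single agents in ATMs without overlap for 4 members, of which *Ly6c2* and *Ly6i* passed the fold limit. What share of all genes lay above both agents in this way was not counted. For *Ly6e* the log2 fold changes were 0.64 and 0.56 against the GLP-1R agonist and the antibody, and for *Ly6a* they were 0.27 and 0.31 (edgeR adjusted p of 1.56e-05 at most). *Ly6c2* was 3.93-fold higher than with the GLP-1R agonist (log2 fold change 1.98, SE 0.0616) and 3.92-fold higher than with the antibody (1.97, SE 0.0613), and *Ly6i* was higher by log2 fold changes of 3.36 (SE 0.287) and 2.25 (SE 0.261). These were the 2 members called against the GLP-1R agonist, beside 5.38% of all genes called higher. Against the antibody *Ly6d* was called as well, at 1.07, which fell to 0.98 without antibody replicate 3, and 3.73% of all genes were called higher. Between the single agents *Ly6d* was higher with the GLP-1R agonist (1.16) and *Ly6i* lower (-1.11, and -0.84 without GLP-1R agonist replicate 3), beside 8.1% of all genes called. Without the fold limit 5 members passed the adjusted p in Combo against WT (41.1% of all genes), with the GLP-1R agonist against WT (35.5%), in Combo against the GLP-1R agonist (39.8%) and in Combo against the antibody (28.6%).

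The design has both single agents and their combination, so the departure of Combo from additivity could be tested. It was the Combo effect less the sum of both single-agent effects, all against Vehicle on the log2 scale, and a positive value means that Combo lowered a gene by less than that sum. In BM it was positive in all 6 members and called in 5 (9.59% of all genes were called higher), from 2.40 for *Ly6c1* to 6.40 for *Ly6i*, with 0.33 for *Ly6d*. In ATMs it was called in 6 of 6 (12.9% called higher), from 2.72 for *Ly6c1* to 8.40 for *Ly6i*, with 5.04 for *Ly6c2* (SE 0.0885, adjusted p = 3.26e-16, edgeR). The same Vehicle libraries enter each term of this value. The single agents alone took *Ly6i* from a mean of 4906 in Vehicle to 41.3 and 56.3 in BM, and from 1671 to 24.1 and 50.6 in ATMs. With Combo the mean of *Ly6i* was 40.9 in BM, near those values, and 242 in ATMs, above them. How far low counts set the sign and size for *Ly6i* was not tested. Other members were near or below WT with 1 agent in most cases. A positive value therefore does not tell how the agents act together.

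The 2 tissues differed in how some members changed, by an interaction term fitted to all 30 libraries and 13076 genes present in both tables. For Vehicle against WT 3 of 6 members differed (28.7% of all genes did). *Ly6d* had the largest difference, with a log2 fold change of 2.93 in ATMs and -1.37 in BM (difference 4.31, SE 0.117, adjusted p = 3.77e-21, edgeR). *Ly6c2* rose more in ATMs (difference 2.08, SE 0.0644) and *Ly6i* more in BM (difference -1.38, SE 0.313). For Combo against Vehicle *Ly6i* (4.16) and *Ly6a* (2.11) fell less in ATMs than in BM, beside 28.1% of all genes, and the single agents gave 2 (GLP-1R agonist, 26.6%) and 4 members (antibody, 29.3%). Without the limit of 1 on the difference, 6 members passed for Vehicle against WT (56% of all genes) and 6 for Combo against Vehicle (55.1%).

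Per kilobase of exon, the family was ordered differently in the 2 tissues. In WT marrow *Ly6d* (9801 ± 945 normalized counts per kb, n = 3) and *Ly6c2* (8555 ± 395) led, followed by *Ly6e* (6021 ± 461), *Ly6a* (892 ± 41.7), *Ly6c1* (74.3 ± 14.9) and *Ly6i* (72.7 ± 9.34), the last 2 within their spread of each other. In Vehicle marrow the order was *Ly6c2* (34310.0 ± 1196), *Ly6e* (24675 ± 712), *Ly6a* (12351 ± 64.9), *Ly6i* (4244 ± 190), *Ly6d* (3780 ± 167) and *Ly6c1* (434 ± 31.8). WT ATMs were led by *Ly6a* (16854 ± 418) and *Ly6e* (15973 ± 954), whose values overlapped within their spread, and *Ly6c2* (399 ± 19.4) was next to last. In Vehicle ATMs *Ly6a* reached 130245 ± 4376, ahead of *Ly6c1* (44154.5 ± 976) and *Ly6e* (42545 ± 783).

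Interferon-induced genes rose in Vehicle in both tissues. Of 12 such genes 11 were called higher in BM and 12 in ATMs in Vehicle against WT, with median log2 fold changes of 4.51 and 4.88 beside -0.02 and -0.21 over all genes. *Isg15*, a ubiquitin-like modifier, had log2 fold changes of 5.03 in BM and 5.24 in ATMs, and *Irf7*, a transcription factor of the interferon response, of 4.49 and 5.52. All 12 were called lower in Combo than in Vehicle in each tissue. Their summed level was 19902 to 20151 in WT and 225795 to 226768 in Vehicle marrow, and 8287 to 8367 with the GLP-1R agonist, 11465 to 11713 with the antibody and 9652 to 9747 with Combo. In ATMs it was 32188 to 34243 in WT, 873885 to 897462 in Vehicle, 31293 to 32440 with the GLP-1R agonist, 18409 to 19359 with the antibody and 31583 to 32477 with Combo. It did not follow every member, since *Ly6d* fell in BM where the sum rose, and *Ly6c2* and *Ly6i* in ATMs were higher with Combo than with the GLP-1R agonist while the sums of these groups overlapped. Its part in the changes of *Ly6a*, *Ly6e* and *Ly6i* was not tested.

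Markers of other cells moved with single members. In BM the summed level of 10 B-cell markers was 50345 to 51120 in WT, 13507 to 14207 in Vehicle, 16163 to 16421 with the antibody, 4406 to 4413 with the GLP-1R agonist and 5010 to 5097 with Combo, and 9 of the 10 were called lower in Vehicle than in WT. Like this sum, *Ly6d* was highest in WT. The order of the other groups differed, since *Ly6d* was higher in Vehicle than with the antibody and higher with the GLP-1R agonist than with Combo. In ATMs the sum of the 7 B-cell markers in the table went the other way from *Ly6d*, at 10223 to 12152 in WT and 3060 to 3653 in Vehicle. That of 6 keratinocyte and urothelial markers, of which 3 were called higher and 1 lower in Vehicle than in WT, was 6123 to 6480 in WT, 7207 to 8024 in Vehicle and 427 to 570 with the antibody. Within it *Upk1b*, a protein of the bladder lining, fell from 5866 to 6242 in WT to 1018 to 1247 in Vehicle, and *Upk3a*, another, rose from 31.6 to 65.4 to 900.4 to 1118. *Krt14* was 20.7 to 106 and 25.0 to 73.3, *Trp63* 82.2 to 113 and 29.9 to 270, and neither passed the test. The epithelial keratins *Krt5* and *Krt15* went from 0 to 20.2 and from 20.2 to 30.5 in WT to 1391 to 1814 and 3435 to 3742 in Vehicle. The parts of B cells and of epithelium in *Ly6d* were not tested.

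For *Ly6c1* and *Ly6c2* in ATMs the lists that moved differed. The summed level of 10 endothelial markers was 31996 to 32219 in WT, 148534 to 153907 in Vehicle and 29094 to 32312 with Combo, and 8 of the 10 were called higher in Vehicle than in WT. A rise in Vehicle was not particular to this list, since the interferon-induced sum rose too, while the sum for stroma fell. The summed level of 6 adipocyte markers was 37644 to 37807 in WT, 133667 to 141853 in Vehicle and 40883 to 41137 with Combo. That of 10 neutrophil markers was 16320 to 16811 in WT, 728718 to 771936 in Vehicle, 8821 to 9337 with the GLP-1R agonist, 15929 to 16578 with the antibody and 430565 to 439797 with Combo, where *Ly6c2* was also high, and 9 of the 10 were called higher in Vehicle than in WT. That of 10 monocyte markers was 130334 to 134056 in WT, 29264 to 31913 in Vehicle and 88503 to 93754 with Combo, against the direction of *Ly6c2*. In BM, where *Ly6c2* rose 4.01-fold, the monocyte sum fell from 65623 to 67895 in WT to 52572 to 53472 in Vehicle, and the neutrophil sum was 3658900.0 to 3926600.0 in WT and 4152400.0 to 4215310.0 in Vehicle, although the median neutrophil marker had a log2 fold change of -0.40. The endothelial sum did not rise in BM, at 2680 to 2955 in WT and 2544 to 2646 in Vehicle, where *Ly6c1* rose 5.86-fold. All listed monocyte, neutrophil and endothelial markers were detected in every group, and their part in the changes of *Ly6c1* and *Ly6c2* was not tested.

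**Figure D4:**
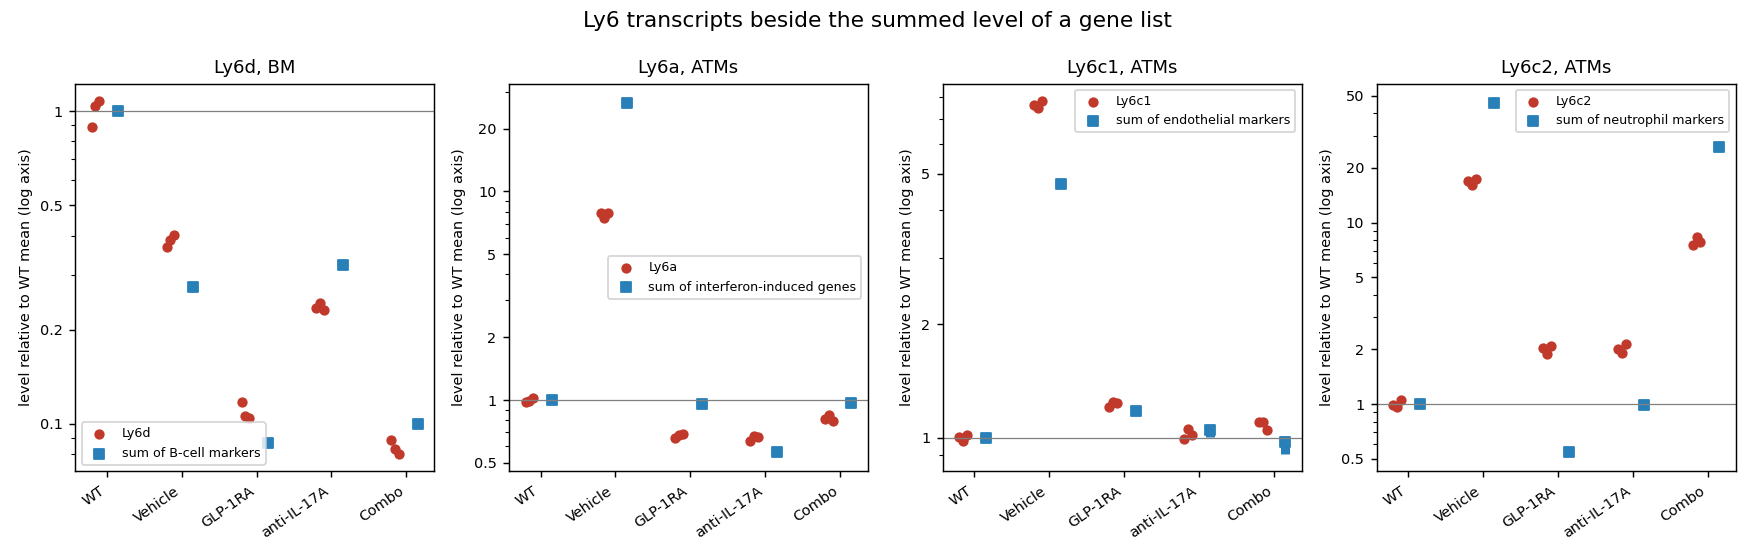
Level relative to the WT mean, on log axes, of a *Ly6* member (red points, 1 per library) and of the summed level of a gene list (blue square at the group mean, with a bar from the lowest to the highest library) in the 5 groups. In ATMs *Ly6c2* and the neutrophil markers are both high in Vehicle and Combo, and *Ly6c1* and the endothelial markers are high in Vehicle.

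The genes most like each member were those with the highest Pearson correlation of log2 CPM over the 15 libraries of a tissue, given as a description, since the points share 5 groups and genes are not independent. *Ly6a* was nearest to *AW112010* (0.999), *Irgm1* (0.998) and *Mx1* (0.997) in BM and to *Ifitm3* (0.999), *Irf7* (0.999) and *Xaf1* (0.998) in ATMs. *Ly6d* was nearest to *Myo1e* (0.994), *Fcmr* (0.992) and *H2-DMb2* (0.991) in BM, but to *Pde4b* (0.996), *Xdh* (0.991) and *Smim3* (0.991) in ATMs. *Ly6c1* was nearest to *Fabp4* (0.998), *Trex1* (0.997) and *Esam* (0.995) in ATMs and to *Zc3hav1* (0.982), *Lacc1* (0.982) and *Cxcl3* (0.981) in BM. *Ly6c2* was nearest to *Ctsz* (0.995), *Napsa* (0.995) and *Tor1aip1* (0.993) in BM and to *Fpr1* (0.997), *Il1b* (0.987) and *Saa3* (0.987) in ATMs. For *Ly6e* the nearest were *Rnf114* (0.997), *Helz2* (0.997) and *H2-D1* (0.996) in BM and *Zfp36* (0.996), *Tgtp1* (0.993) and *S100a16* (0.986) in ATMs. For *Ly6i* they were *Tor3a*, *Dhx58* and *Igtp* (0.993 each) in BM and *Lrg1* (0.988), *Prdx5* (0.988) and *Psmb9* (0.98) in ATMs.

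Among the members themselves the correlation was lowest where *Ly6d* was involved in BM, from 0.165 with *Ly6c1* to 0.481 with *Ly6a*, against 0.89 to 0.983 among the other 5. In ATMs *Ly6d* followed *Ly6a* (0.962) and *Ly6c1* (0.953), and *Ly6c2* was the member least like the others, at 0.618 with *Ly6e* and 0.727 with *Ly6a*.

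The wider Ly6/uPAR family was counted as a list. Of 43 other family genes 12 were in the BM table, and 5 were called in Vehicle against WT, all of them lower, with a median log2 fold change of -0.82 over the 12, beside 10% of all genes called lower. The 5 were *Lynx1* (log2 fold change -1.88), a modulator of nicotinic receptors, and the low-count genes *Cd59b* (-1.79), *Ly6g6f* (-1.67), *Lypd6b* (-2.07) and *Gpihbp1* (-1.30). Combo against Vehicle gave *9030619P08Rik* higher (1.21), the complement inhibitor *Cd59a* lower (-1.14) and *Ly6g6f* lower, at least 3.37-fold against a floor of 3 counts per library, beside 6.58% of all genes called higher and 11.1% lower. The 15 genes of GPI-anchor synthesis and remodelling had 2 called in BM in Vehicle against WT, both lower, beside 10% of all genes called lower, with a median log2 fold change of 0.06.

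In ATMs 25 other family genes were in the table, and 7 were called higher and 5 lower in Vehicle than in WT, beside 12.5% and 22.9% of all genes. The abundant ones were *Plaur*, the urokinase receptor, which rose from 3350 to 3510 in WT to 36600 to 39400 in Vehicle libraries (log2 fold change 3.46, adjusted p = 1.98e-17, edgeR), *Gpihbp1*, which carries lipoprotein lipase on capillary endothelium, from 2160 to 2590 to 20200 to 21300 (3.09, adjusted p = 7.91e-15), and *Psca*, from 4.76 to 55.6 to 2300 to 2500 (6.28, adjusted p = 8.47e-09). *Ly6k* (2.02), *Lypd3* (2.76), *Lypd2* (at least 158-fold) and *2010109I03Rik* (at least 20.5-fold) were higher as well. Lower were *Ly6f* (-4.95), *Lynx1* (-1.44), *Lypd1* (-4.12), *Lypd4* (at least 54.9-fold) and *Tex101* (at least 1.76-fold). Combo against Vehicle gave 2 higher and 12 lower, beside 14.1% and 12.2% of all genes. *Plaur* (-2.17), *Gpihbp1* (-1.91), *Psca* (-1.62), *Cd59a* (-1.46), *Ly6k* (-1.56), *Ly6f* (-2.82), *Lypd2* (-3.65), *Lypd3* (-3.21), *Lypd8* (-6.30), *Ly6g6e* (-2.17) and *Gml* (at least 6.65-fold) fell, *Lypd6* was at 0 in the Combo libraries and 0 to 102 in Vehicle, and *Ly6g5b* (3.06) and *Lypd1* (4.07) rose. Of the 15 GPI-anchor genes 6 were called in Vehicle against WT in ATMs, all lower, beside 22.9% of all genes called lower, with a median log2 fold change of -0.51 and of -0.21 over all genes.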

How the data were processed

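RNA was sequenced from 15 BM and 15 ATM libraries. Per the labels and the study's methods, the authors aligned reads to mm10 (GRCm38) with STAR 2.7.2a and counted uniquely mapped pairs per GENCODE M22 gene with featureCounts 2.0.1, without strand and with reads over several genes counted for each. The deposited values are raw counts per gene, 1 table per tissue. Here edgeR 4.0.16 (R 4.3.3; TMM, filterByExpr, quasi-likelihood fit over the 15 libraries of a tissue) gave every adjusted p (Benjamini-Hochberg over all genes of the table), and tissues were compared as an interaction over shared genes. The fit was tested on simulated data. Samples were grouped by the labels. Alternatives were DESeq2 1.42.0, its size factors, other count filters, no fold limit, fits to the groups compared, a replicate block and leaving out each library. Exon lengths and positions came from GENCODE M21, which may differ from M22, and promoter windows from RefSeq GRCm38.p6. All members were named, with the 3 genes most like each (mean of at least 100 counts) and other Ly6/uPAR genes where called. A fold against a group at 0 was set against 3 counts per library. The members and lists were chosen with earlier results of these data known. *Ly6g* was not analysed here, and 1 gene of the interferon list is not reported by itself. Depth was 24876074 to 45300263 counts per library, and the members with the lowest counts had the widest spread.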

Additional observations from a re-analysis of the deposited data

Results flagged for a closer look

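In all, 11 differences between BM and ATMs passed the edgeR interaction test with a difference beyond 1 on the log2 scale, each given as the log2 fold change in ATMs less that in BM. The shares of all 13076 genes that passed were 28.7% for Vehicle against WT. Against Vehicle they were 26.6% for the GLP-1R agonist, 29.3% for the antibody and 28.1% for Combo. For Vehicle against WT these were *Ly6d* at 4.31 (adjusted p = 3.77e-21), *Ly6c2* at 2.08 (adjusted p = 6.73e-20) and *Ly6i* at -1.38 (adjusted p = 0.000501). *Ly6d* rose in ATMs and fell in BM, while the other two rose in both tissues.

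For the GLP-1R agonist against Vehicle, *Ly6a* differed by 1.20 and *Ly6d* by -1.11. For the antibody against Vehicle, *Ly6a* differed by 1.23, *Ly6c2* by -1.22, *Ly6d* by -3.41 and *Ly6i* by 1.37. For Combo against Vehicle, *Ly6a* differed by 2.11 and *Ly6i* by 4.16, so that both fell less in ATMs than in BM. All of these comparisons share the Vehicle libraries, and the ATM and BM libraries also differ in the cells they hold.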

How the results depend on the processing

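Of 374 counts of called members recomputed under the alternatives, 354 were within 1.5 times the value reported, and 12 of the others came from dropping the fold limit. Without that limit the counts in BM against WT were 6 for Combo (73.3% of all genes), 5 for the GLP-1R agonist (74.7%) and 6 for the antibody (66.3%). Between treated groups in BM they were 4 for Combo against the GLP-1R agonist (71.4%), 3 for Combo against the antibody (52.5%) and 4 for the GLP-1R agonist against the antibody (62.7%). In ATMs they were 5 for Combo against WT (41.1% of all genes), for the GLP-1R agonist against WT (35.5%), for Combo against the GLP-1R agonist (39.8%) and for Combo against the antibody (28.6%). For the difference between tissues they were 6 in Vehicle against WT (56%) and 6 in Combo against Vehicle (55.1%). DESeq2 gave 2 for the GLP-1R agonist against WT in BM, and fitting only the groups compared gave 1 for the GLP-1R agonist against the antibody in ATMs. Leaving out 1 library gave 1 to 2 members for the GLP-1R agonist against WT and for the antibody against WT in BM, and 1 to 2 for the GLP-1R agonist against the antibody in ATMs.

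Some log2 fold changes near 0, none of them called, changed sign. In ATMs *Ly6d* in the GLP-1R agonist against WT was -0.0083 with at least 10 counts in every library, -0.0308 with DESeq2, -0.0306 with its size factors and -0.043 with only the groups compared, and -0.0502 to 0.0558 without 1 library. *Ly6a* in the GLP-1R agonist against the antibody in ATMs was -0.0046, -0.0113 and -0.0114 under the first 3 of these. The difference between tissues for *Ly6e* in the GLP-1R agonist against Vehicle was -0.0202 with DESeq2 and with its size factors. Without 1 library *Ly6c1* in BM ranged from -0.1486 to 0.0602 (Combo against antibody) and from -0.0272 to 0.2792 (GLP-1R agonist against WT), *Ly6c2* in ATMs from -0.0547 to 0.0363 (GLP-1R agonist against antibody), *Ly6e* in BM from -0.0201 to 0.0081 (Combo against antibody) and *Ly6i* in BM from -0.3404 to 0.2634 (Combo against GLP-1R agonist). The cause was not tested.

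Same-numbered libraries did not deviate together (correlations of -0.03 to 0.052), and with the replicate number as a block 156 of 156 results of single members kept their call. The limits are 3 libraries per group, low counts of *Ly6i* in all groups but Vehicle, and reads that *Ly6c1* and *Ly6c2* can share. The *Ly6g* to *Ly6c2* ratio was not run.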
